A study of Mus musculus with 4 samples.

Results

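The Hox genes encode homeodomain transcription factors that give cells their position along the head-to-tail axis of the embryo. In the mouse they lie in 4 clusters, Hoxa on chromosome 6, Hoxb on chromosome 11, Hoxc on chromosome 15 and Hoxd on chromosome 2. All 39 protein-coding RefSeq genes named Hoxa, Hoxb, Hoxc or Hoxd plus a number were taken, out of 21887 protein-coding genes on chromosomes 1 to 19, X and Y. Every peak touching a cluster or the 50 kb beyond its outer genes was then listed. These windows hold 39 of 35677 peaks called at a p-value threshold of 1e-05 on those chromosomes in the 0 h library, and 14 of 41191 in the 72 h library. The rule uses names and positions and no measured value, though it was set with earlier results of these data known.

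Peaks come from ATAC-seq, in which the transposase Tn5 cuts open chromatin and the released fragments are sequenced. Mice of the C57BL/6J background gave jejunal crypts, taken from the proximal part of the small intestine, which were grown into epithelial organoids in a basement membrane matrix, and 30000 dissociated cells went into each library. The 0 h group stayed in medium with EGF, R-spondin, the GSK3 inhibitor CHIR99021 (which turns on Wnt signalling), the histone deacetylase inhibitor valproic acid and Noggin, which blocks bone morphogenetic proteins (BMPs). The 72 h group spent that time without CHIR99021, valproic acid and Noggin, in EGF and R-spondin with 100 ng/mL BMP2. The withdrawal of these agents and the addition of BMP2 therefore cannot be told apart. The series has 4 libraries, 1 per time point, and those of 24 h and 48 h were not analysed here. Whether cells of several mice were pooled is not given in the sources used here.

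Within a Hox cluster the genes are ordered as they are used along the body, from paralogue group 1 (anterior) to group 13 (posterior), and genes of the same number in different clusters are paralogues. Repressed Hox clusters are a classic target of Polycomb proteins, which compact chromatin, and Trithorax proteins and retinoic acid receptors act to open them. In the gut, Hox genes are known for regional patterning of both the epithelium and the mesenchyme around it, and the posterior members Hoxa13 and Hoxd13 for the hindgut.

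A few Hox promoters are shown first, as those that lay inside a peak; most of the peaks described below lie elsewhere in the clusters. The 300-base promoter windows in the RefSeq tables (assembly GRCm38.p6, 250 bases before to 50 after a gene start) covered 24 starts of 22 Hox genes. Of these, 3 lay wholly inside a peak called at 0 h and in none called at 72 h: those of Hoxa13 (chr6:52260831-52261130, minus strand), Hoxd13 (chr2:74667975-74668274, plus strand) and Hoxd1 (chr2:74762730-74763029, plus strand). The promoter of Hoxa5 (chr6:52204538-52204837, minus strand), which lay wholly inside a peak in both libraries, is given for comparison. Of the Hoxb genes only Hoxb1, Hoxb4 and Hoxb8 had a listed start, and of the Hoxc genes only Hoxc4. Capitals mark GGCGCC, a GC-rich word bound by Smad proteins, the factors that carry BMP signals.
Hoxa13: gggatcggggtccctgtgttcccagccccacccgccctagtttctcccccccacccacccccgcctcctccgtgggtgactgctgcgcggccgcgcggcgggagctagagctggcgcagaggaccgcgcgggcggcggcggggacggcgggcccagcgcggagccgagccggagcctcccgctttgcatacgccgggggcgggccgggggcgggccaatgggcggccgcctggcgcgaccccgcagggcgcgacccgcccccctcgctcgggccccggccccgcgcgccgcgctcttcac
Hoxd13: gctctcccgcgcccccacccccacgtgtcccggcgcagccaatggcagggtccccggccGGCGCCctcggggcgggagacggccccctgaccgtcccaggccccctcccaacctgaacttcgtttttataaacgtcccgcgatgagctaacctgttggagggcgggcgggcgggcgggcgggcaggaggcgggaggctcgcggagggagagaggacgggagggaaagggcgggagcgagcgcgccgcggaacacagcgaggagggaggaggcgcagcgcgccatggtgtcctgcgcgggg
Hoxd1: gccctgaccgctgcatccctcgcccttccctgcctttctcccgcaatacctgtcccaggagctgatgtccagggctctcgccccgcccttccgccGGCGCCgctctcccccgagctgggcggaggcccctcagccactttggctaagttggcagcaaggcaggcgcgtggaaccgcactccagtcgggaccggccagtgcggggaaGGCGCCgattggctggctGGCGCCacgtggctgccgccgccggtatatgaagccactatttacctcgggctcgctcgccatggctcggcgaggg
Hoxa5: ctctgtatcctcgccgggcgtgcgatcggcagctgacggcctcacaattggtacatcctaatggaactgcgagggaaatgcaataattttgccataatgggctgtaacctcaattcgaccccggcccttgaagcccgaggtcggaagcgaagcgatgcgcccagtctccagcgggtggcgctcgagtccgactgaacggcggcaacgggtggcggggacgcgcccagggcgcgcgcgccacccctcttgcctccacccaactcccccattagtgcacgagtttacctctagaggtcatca

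The sequences at 0 h alone are rich in G and C. GC content was 81.0% at Hoxa13, 74.3% at Hoxd13 and 69.7% at Hoxd1, with 45, 37 and 29 CpG dinucleotides, against 61.7% and 29 at Hoxa5. The 24 Hox promoters had a median GC content of 57.7% (39.7 to 81.0) and a median of 14.5 CpG, where all 32851 promoters had 52.7% and 7. Searched on both strands, GGCGCC occurred in 5 of the 24 Hox promoters (20.8%) and in 11.9% of all promoters of this length. The Cdx word TTTATG was also in 5 (11.9% of all promoters) and the Hox-Pbx word TGATTNAT in 2 (3.22% of all). No Hox promoter held the palindromic Smad word GTCTAGAC (0.213% of all), the CTCF word, read as CCA, 2 bases, AG, 2 bases and GGC (2.43%), or the retinoic acid receptor word, read as GGTCA, 5 bases and GGTCA (0.0761%). A word of this kind is a description of the letters and no evidence that a factor binds there.

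Peaks at the Hox clusters were called mostly at 0 h. The 4 windows, 892 kb in all, held 39 peaks in the 0 h library and 14 in the 72 h library, a 2.79-fold excess for 0 h, whereas the whole lists differed 1.15-fold in favour of 72 h. Of the 39 peaks at 0 h, 28 were overlapped by no base of a 72 h peak and are called 0 h-only here, a share of 71.8% (exact 95% interval 55.1 to 85.0), where 20.7% of all 0 h peaks were 0 h-only. Of the 14 peaks at 72 h, 4 were 72 h-only, 28.6% (8.39 to 58.1), beside 30.6% of all 72 h peaks. The share at 0 h thus lay above the background and the share at 72 h near it. Intervals cover counting error alone. Each time point has a single library, so nothing could be tested against replicates, and neighbouring peaks are not independent.

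Few Hox peaks were strong enough for the stricter list. A peak in the 1e-10 list is called strict here, and one in the 1e-05 list alone weak. At a threshold of 1e-10 the lists kept 8 of the 39 peaks at 0 h (20.5%, 9.30 to 36.5) and 3 of the 14 at 72 h (21.4%, 4.66 to 50.8), against 55.6% and 60.6% of all peaks. Weak peaks are more often found in 1 library alone, so both classes were compared separately. Of the 31 Hox peaks at 0 h in the 1e-05 list alone, 24 were 0 h-only, 77.4% (58.9 to 90.4), against 38.6% of all such peaks. Of the 8 in the 1e-10 list, 4 were 0 h-only, 50.0% (15.7 to 84.3), against 6.40% of all. At 72 h, 4 of 11 peaks in the lenient list alone were 72 h-only (36.4%, 10.9 to 69.2), beside 49.9% of all, and 0 of 3 in the strict list, beside 18.1%. The excess of 0 h-only peaks was thus present at either strength. Of the sites called at both times, none was strict in both libraries: 4 of 11 shared peaks at 0 h (36.4%, 10.9 to 69.2) and 3 of 10 at 72 h (30.0%, 6.67 to 65.2) were in the strict lists, where 65.6% and 71.6% of all shared peaks were. The interval at 0 h includes that background and the interval at 72 h lies below it.

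**Figure D1:**
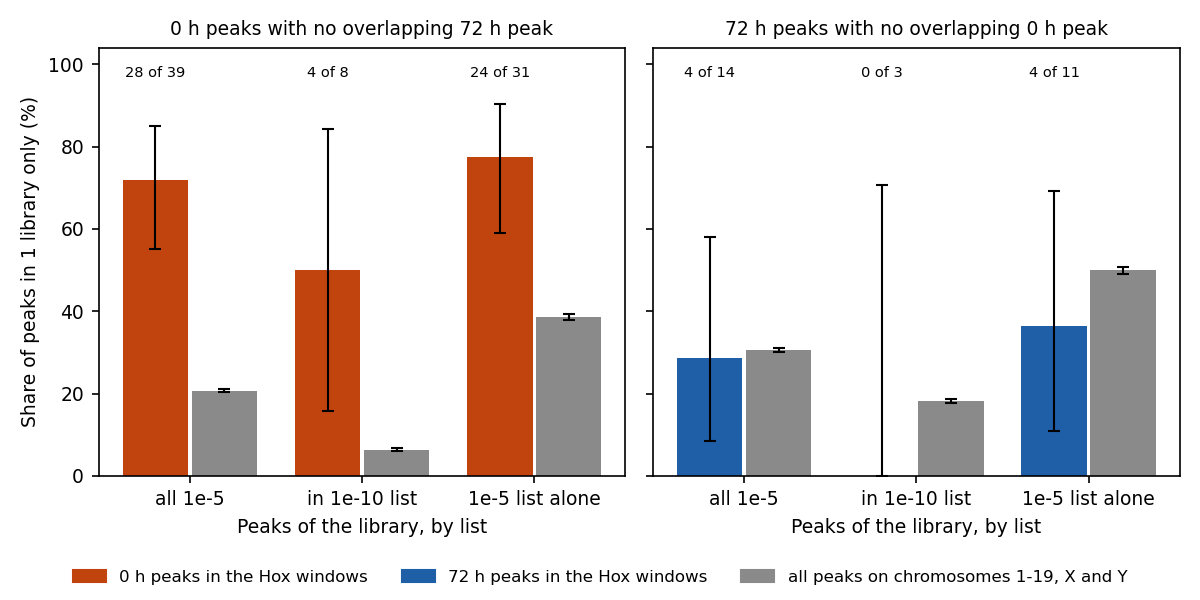
Share of peaks found in 1 library only (%), in the Hox windows (coloured bars) and among all peaks on chromosomes 1 to 19, X and Y (grey bars), for all 1e-05 peaks and by list; error bars are exact 95% intervals that cover counting error only. At 0 h the Hox share is 71.8% against 20.7%, and at 72 h it is 28.6% against 30.6%.

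The deposited lists give positions (an interval of fixed width around each summit) and names but no height, so a 0 h-only peak is a difference in calling and its size is unknown. Most did not lie close to a called 72 h peak: the gap was under 1 kb for 3 of the 28, over 5 kb for 24 and over 20 kb for 13, with a median of 12.2 kb. This distance cannot show whether 72 h signal at the same site fell just short of the threshold. Gaps over all 0 h-only peaks are not given here. A gap also depends on how many peaks of the other library the windows hold, so the gaps are not separate from the counts above. For the 4 72 h-only peaks the gap to the nearest 0 h peak ran from 416 bp to 6.16 kb. Where a site was called at both times, the summits nearly coincided, with offsets of 2 to 221 bp and a median of 59 bp for the 11 shared 0 h peaks. The 0 h peak numbering skips 5 numbers between the peaks that flank the windows (3 at Hoxa and 2 at Hoxc), and those positions were not analysed here. The 72 h numbering skips none there. Over the whole lists 1427 numbers are skipped at 0 h and 740 at 72 h, so skipped numbers are not particular to the Hox windows.

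All 4 clusters had more peaks at 0 h than at 72 h. Hoxa held 17 at 0 h and 7 at 72 h, Hoxb 11 and 6, Hoxc 3 and 0, and Hoxd 8 and 1. Of these, 11, 8, 3 and 6 were 0 h-only, in the same order, and 1, 3, 0 and 0 were 72 h-only. Between the outer genes of the clusters lay 32 peaks at 0 h, of which 23 were 0 h-only, and 10 at 72 h, of which 2 were 72 h-only. The 50 kb flanks added 7 peaks at 0 h (5 of them 0 h-only) and 4 at 72 h (2 of them 72 h-only). By count the difference was thus carried mainly by the clusters themselves. The share of 0 h peaks that were 0 h-only was similar in the flanks (5 of 7) and the clusters (23 of 32). Of the strict peaks at 0 h, 5 lay in the clusters and 3 in the flanks.

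**Figure D2:**
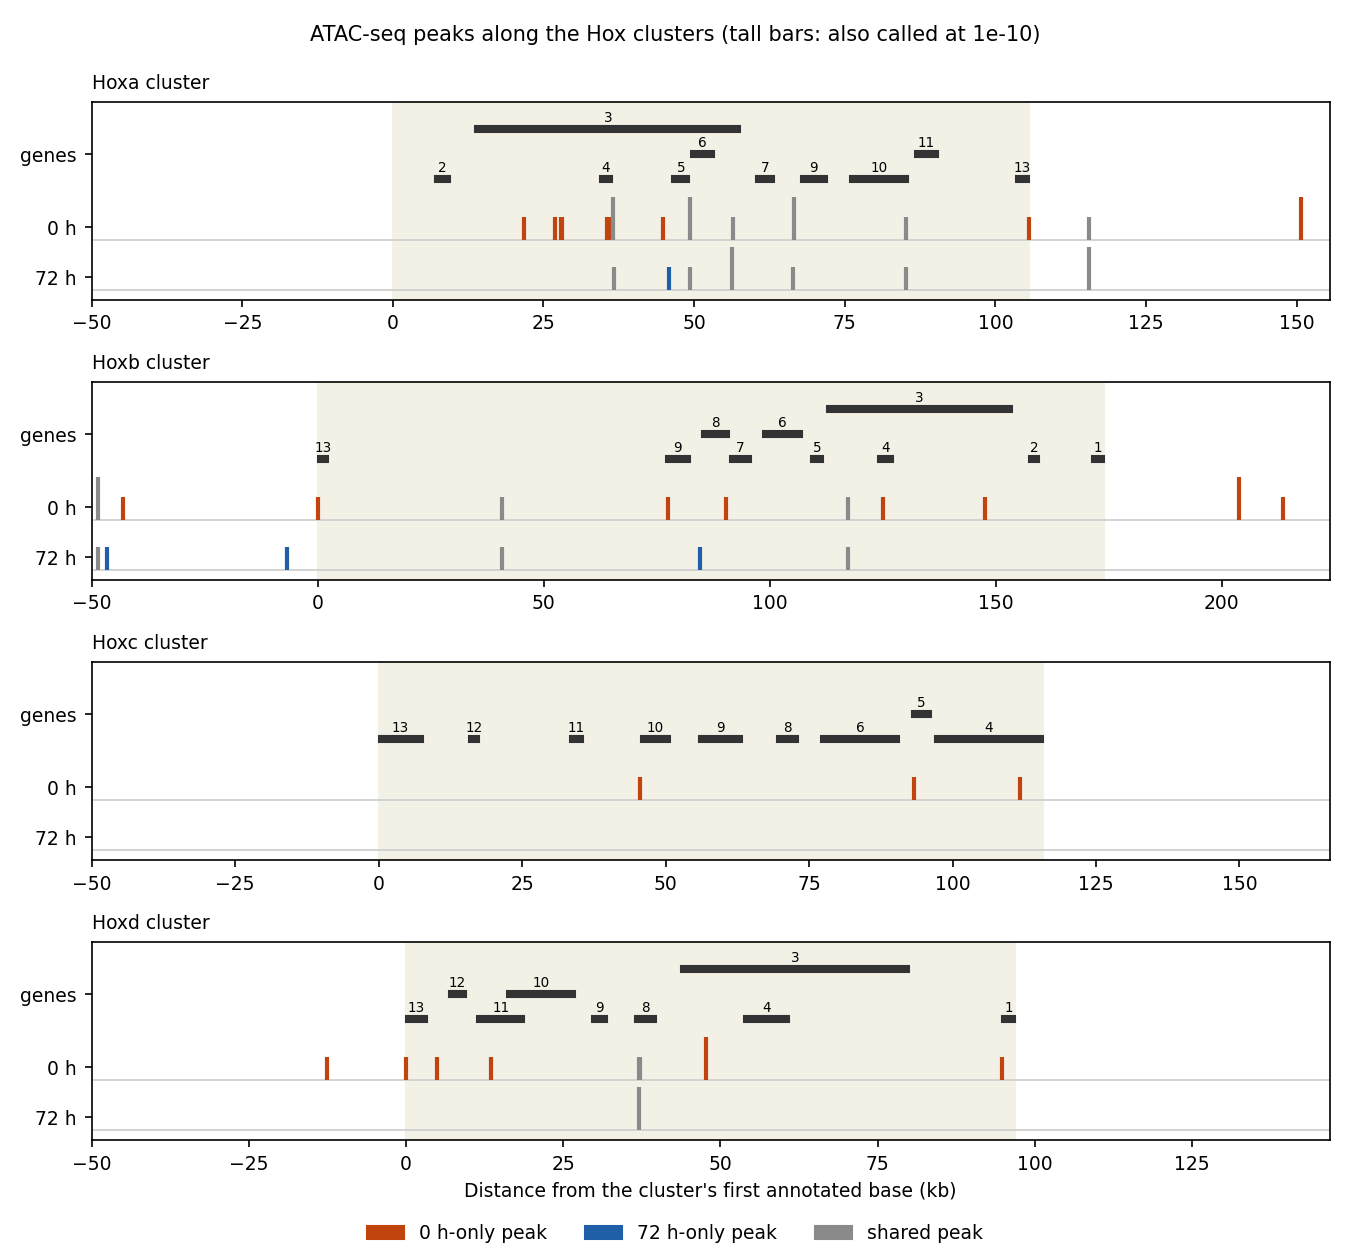
Peaks along the 4 Hox clusters, with distance from each cluster's first annotated base in kb on the x axis and, from top to bottom, gene spans with their paralogue numbers, 0 h peaks and 72 h peaks; the shaded part runs from the first to the last Hox gene. Tall bars are peaks also called at 1e-10, orange and blue bars are 0 h-only and 72 h-only peaks and grey bars are shared ones, and the Hoxc window has 3 bars at 0 h and none at 72 h.

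Hoxa was the cluster with the most peaks in both libraries. The windows of the 4 clusters held 4 strict 0 h-only peaks, which are also the 4 regions there that the authors listed as enriched at 0 h, so that list adds no separate evidence. Their list for 72 h has 0 regions in the windows. Hoxa2, a gene of hindbrain patterning, had no peak within 1 kb in either library. Hoxa3, a gene of pharyngeal arch patterning, spans 44.0 kb in RefSeq and encloses Hoxa4 to Hoxa6, so its count of 10 peaks at 0 h and 4 at 72 h includes those at its neighbours. In its part away from Hoxa4 to Hoxa6, 4 weak peaks on chromosome 6 between 52176752 and 52183794 were 0 h-only. No 72 h peak was called for 179 kb, from 52013049 to 52191696, and the first one beyond lay at the Hoxa5 side of Hoxa4. Much of this stretch lies outside the cluster, where no 0 h peak was called either.

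The centre of Hoxa held some of the sites that both libraries had, and others lay toward Hoxa13 and beyond it. At that edge of Hoxa4 a peak at 52191596 to 52192196 was in the strict list at 0 h and overlapped a weak one at 72 h, and 2 weak peaks inside Hoxa4 were 0 h-only. Hoxa5, which patterns the lung and gut, had a peak at 52204309 to 52204909 that covers its promoter. It was strict at 0 h, and the 72 h peak, 2 bp away, was weak. This peak also touches Hoxa6. Beside Hoxa5, a weak peak at 52199826 to 52200426 was called at 0 h alone and another at 52200843 to 52201443 at 72 h alone, 416 bp apart. Between Hoxa6 and Hoxa7, inside the Hoxa3 span at 52211447 to 52212047, the order was the opposite, with a weak peak at 0 h and a strict one at 72 h. No peak lay within 1 kb of Hoxa7.

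Toward the posterior end the peaks thinned out. A site between Hoxa7 and Hoxa9 was strict at 0 h (52221577 to 52222177) and weak at 72 h (52221483 to 52222083). It counts for Hoxa9, a regulator of blood progenitors, at 0 h alone, because the 72 h peak ends just beyond the 1 kb margin, so the state of Hoxa9 comes from the margin and not from a missing peak. Hoxa10 had 1 weak peak at the gene start in both libraries (52240205 to 52240805 at 0 h), which reached 1 bp into its promoter window at 0 h and 11 bp at 72 h. Hoxa11, a limb and kidney gene, had none. Hoxa13 had a weak 0 h-only peak over its promoter, at 52260678 to 52261278, with the nearest 72 h peak 9.41 kb away. That 72 h peak, at 52270691 to 52271291, was strict and shared with a weak 0 h peak. Farther out, at 52305740 to 52306340, lay a strict 0 h-only peak that the authors list as enriched, 45.2 kb from Hoxa13 and 2.05 kb from the lncRNA gene Evx1os.

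At Hoxb every peak between the outer genes was weak. Hoxb13, a posterior gene also known from the prostate, had a 0 h-only peak across its outer edge, at chromosome 11, 96193988 to 96194588, and a 72 h-only peak lay outside it, at 96187224 to 96187824, 6.16 kb away. Hoxb9 (96271576 to 96272176), Hoxb8 (96284288 to 96284888), Hoxb4 (96319132 to 96319732) and Hoxb3 (96341700 to 96342300) each had a 0 h-only peak inside the gene, and the Hoxb8 peak also lies within 1 kb of Hoxb7. Hoxb8 had in addition a 72 h-only peak beside its other end, at 96278655 to 96279255, so that its peaks at 0 h and 72 h are at different sites. A site inside Hoxb3 at 96311420 to 96312020 and one between Hoxb13 and Hoxb9 at 96234879 to 96235479 were shared. Hoxb1, Hoxb2, Hoxb5 and Hoxb6 had no peak within 1 kb. Beyond Hoxb1 lay a strict 0 h-only peak listed by the authors as enriched, at 96397839 to 96398439, 29.9 kb from the gene, and a weak one at 96407526 to 96408126. Outside Hoxb13, in the gene Ttll6, lay a shared site, strict at 0 h (96145506 to 96146106), a 0 h-only peak (96151055 to 96151655) and a 72 h-only one (96147355 to 96147955). At 72 h no peak was called from 96312047 to 96637773, a stretch of 326 kb that includes Hoxb4, Hoxb2 and Hoxb1, where the longest stretch without a peak touching the cluster at 0 h was 55.5 kb.

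Hoxc had no peak at 72 h at all. Its 3 peaks at 0 h were weak: across the edge of Hoxc10, a gene of the lumbar region (chromosome 15, 102966314 to 102966914), inside Hoxc5 (103014172 to 103014772) and inside Hoxc4 (103032574 to 103033174). The nearest 72 h peaks lay 196, 148 and 130 kb from them. The other 6 genes, Hoxc6, Hoxc8, Hoxc9, Hoxc11, Hoxc12 and Hoxc13, had no peak within 1 kb in either library. The stretch without a 72 h peak ran from 102753627 to 103163041, 409 kb, and the longest such stretch at 0 h was 204 kb. These 3 peaks rest on the lenient threshold, and none of them was in the 1e-10 list.

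At Hoxd, 1 site was called at both times. It lies inside Hoxd8, where 2 weak 0 h peaks at chromosome 2, 74704959 to 74705559 and 74705211 to 74705811, overlapped a strict 72 h peak at 74704990 to 74705590. This was the sole 72 h peak of the window. The other 6 peaks at 0 h were 0 h-only. A strict one inside Hoxd3, an axial skeleton gene, at 74715655 to 74716255, is listed by the authors as enriched and lay 10.1 kb from the 72 h peak. Weak ones covered the promoters of Hoxd13 (74667885 to 74668485), a gene of digits and hindgut, and of Hoxd1 (74762703 to 74763303), 36.5 and 57.1 kb from a 72 h peak. Another pair lay between Hoxd13 and Hoxd12 (74672868 to 74673468) and inside Hoxd11 (74681463 to 74682063), 9 bp short of that gene's second listed promoter. The last touched Evx2, a homeobox gene next to the cluster, at 74655365 to 74655965. Hoxd4, Hoxd9, Hoxd10 and Hoxd12 had no peak within 1 kb in either library. Beyond Hoxd8 toward Hoxd1 no 72 h peak was called for 120 kb, against a longest stretch of 62.2 kb at 0 h.

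Counted by gene, a peak touched the gene or the 1 kb on either side of it at 22 of the 39 Hox genes at 0 h (56.4%, 39.6 to 72.2), beside 64.1% of all protein-coding genes, and at 8 at 72 h (20.5%, 9.30 to 36.5), beside 63.3% of all. The Hox genes were thus near the background at 0 h and below it at 72 h. All 8 genes with a peak at 72 h also had one at 0 h. A peak at 0 h and none at 72 h was found at 14 Hox genes, 35.9% (21.2 to 52.8), where 3.73% of all genes showed that state. These 14 include Hoxa9, for which a 72 h peak at the same site ends just beyond the 1 kb margin. No Hox gene had the opposite state (0%, upper bound 9.03%), which 2.93% of all genes showed. With peaks of the 1e-10 lists, 7 Hox genes were touched at 0 h and 2 at 72 h, against 55.6% and 55.9% of all genes. Genes that overlap share peaks, so the 22 genes at 0 h rest on 30 different peaks and the 8 at 72 h on 8.

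**Figure D3:**
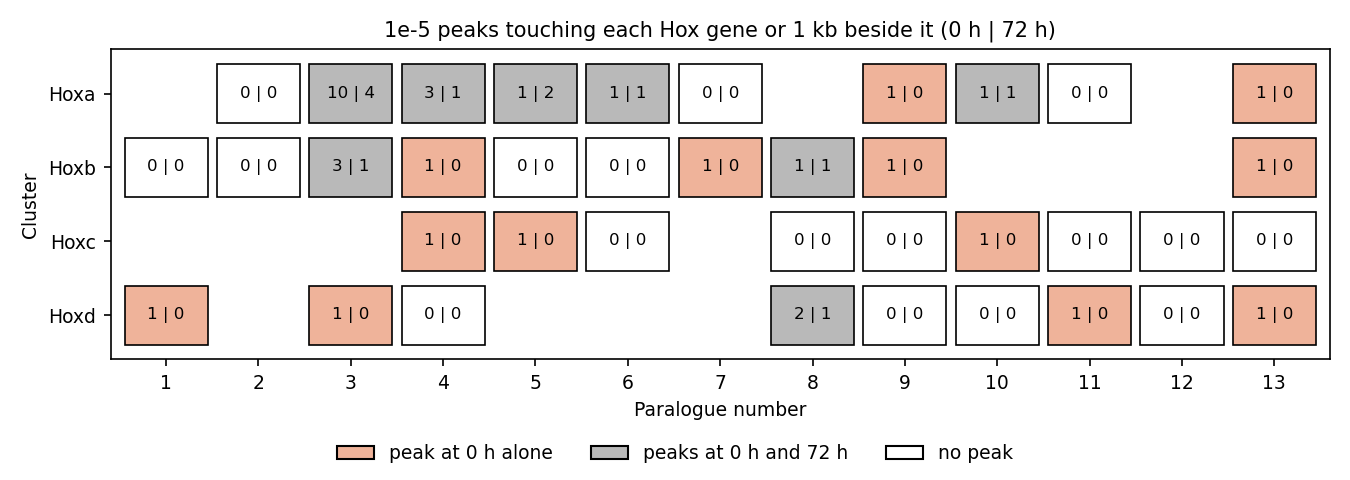
Hox genes by paralogue number (x axis) and cluster (y axis); each box gives the number of 1e-05 peaks that touch the gene or 1 kb beside it at 0 h and, after the bar, at 72 h. Orange boxes are genes with a peak at 0 h alone, grey boxes the 8 with peaks at both times and white boxes the 17 with none. Hoxa9 is orange because a 72 h peak at the same site ends just beyond the 1 kb margin.

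Counted by gene, the 8 genes with peaks at both times were mostly central members. They are Hoxa3, Hoxa4, Hoxa5, Hoxa6, Hoxa10, Hoxb3, Hoxb8 and Hoxd8. Among the 15 central genes (groups 4 to 8), 9 had a peak at 0 h and 5 at 72 h. Among the 16 posterior genes (groups 9 to 13), 8 had one at 0 h and 1, Hoxa10, at 72 h. Of the 8 anterior genes (groups 1 to 3), 5 had one at 0 h and 2, Hoxa3 and Hoxb3, at 72 h. Counts of peaks run otherwise. Each peak was given to the shortest Hox gene holding its midpoint, or else to the nearest. Central genes then had 8 of 39 peaks at 0 h and 2 of 14 at 72 h. Anterior genes had 16 and 5, and posterior genes 15 and 7. Hoxa4, Hoxa5 and Hoxa6 lie within the Hoxa3 span, and Hoxa5 and Hoxa6 are touched by the same shared peak. Differences between these classes were not tested.

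By paralogue number, group 13 had a peak at 0 h at 3 of its 4 genes, Hoxa13, Hoxb13 and Hoxd13, and none at 72 h. Each of these peaks was 0 h-only and crossed the outer edge of its cluster. All 3 genes of group 3 had a peak at 0 h, and Hoxa3 and Hoxb3 also at 72 h. In group 4, 3 of 4 genes had a peak at 0 h and 1, Hoxa4, at 72 h. Groups 2 and 12, with 2 genes each, had no peak at either time. In group 8, Hoxd8 had a shared site, and Hoxb8 had a peak at each time, at different sites. Paralogues of the same number did not share one state in most groups, as group 9 shows, with peaks at Hoxa9 and Hoxb9 and none at Hoxc9 and Hoxd9.

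The listed Hox promoters, mostly those of Hoxa and Hoxd, followed the same split. Of the 24 promoter windows, 5 were touched by a peak at 0 h (20.8%) and 2 at 72 h (8.33%), against 38.1% and 36.8% of all promoters. The 3 touched at 0 h alone, Hoxa13, Hoxd13 and Hoxd1, make 12.5%, where 3.18% of all promoters were touched at 0 h alone. None was touched at 72 h alone, beside 1.88% of all promoters. Hoxb13 and Hoxc10, each with a 0 h-only peak across an edge of the gene, are among the genes without a listed promoter.

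Genes that work with or upstream of the Hox proteins mostly had peaks at both times, as did 60.3% of all genes. All 9 genes of the TALE cofactors, the Meis, Pbx and Pknox homeodomain proteins that bind DNA with Hox proteins, were measured, and 8 had peaks at both times, for example Meis2 with 4 at 0 h and 4 at 72 h. Meis3 had none. All 16 Polycomb and Trithorax regulators, including the Polycomb methyltransferase subunits Ezh2 and Suz12 and the Trithorax methyltransferase Kmt2a, had peaks at both times. Of 6 retinoic acid receptor genes, 5 had peaks at both and Rxrg at 72 h alone. Of 6 ParaHox genes, the sister family of the Hox genes, 4 had peaks at both (Cdx1, Cdx2, Pdx1 and Gsx1), Cdx4 had 1 at 72 h alone and Gsx2 none. Cdx2, which specifies the intestine and activates Hox genes, had 2 strict peaks in each library. No gene of these 4 lists had a peak at 0 h and none at 72 h, a state rare among all genes (3.73%), so with lists this short its absence is near the background.

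Other families of developmental transcription factors, chosen after the Hox values were seen, showed this state to differing degrees. Of 19 Sox genes, 7 had a peak at 0 h and none at 72 h, among them Sox1, Sox11 and Sox18, and 1, Sox17, the opposite, so by gene the share at 0 h alone was close to that of the Hox genes (14 of 39). Of 49 genes of other homeobox families, among them Dlx, Irx, Lhx, Nkx and Pax, 9 had a peak at 0 h alone, such as Dlx6 and Lhx6, and 2, Lhx5 and Nkx2-5, at 72 h alone. Of 17 Klf genes, 1, Klf14, had a peak at 0 h alone and none at 72 h alone. Within 50 kb of the genes, 0 h-only peaks made up 34.7% (24.0 to 46.5) of the 75 peaks at Sox genes, 31.2% (23.2 to 40.1) of 125 at these homeobox families and 18.0% (11.0 to 26.9) of 100 at Klf genes, beside 71.8% at the Hox clusters and 20.7% of all 0 h peaks. The Klf share was near that of all peaks, and the intervals for Sox and the homeobox families lay above it. The interval of the Hox share lies above those of the 3 lists. Differences between the families were not tested.

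**Figure D4:**
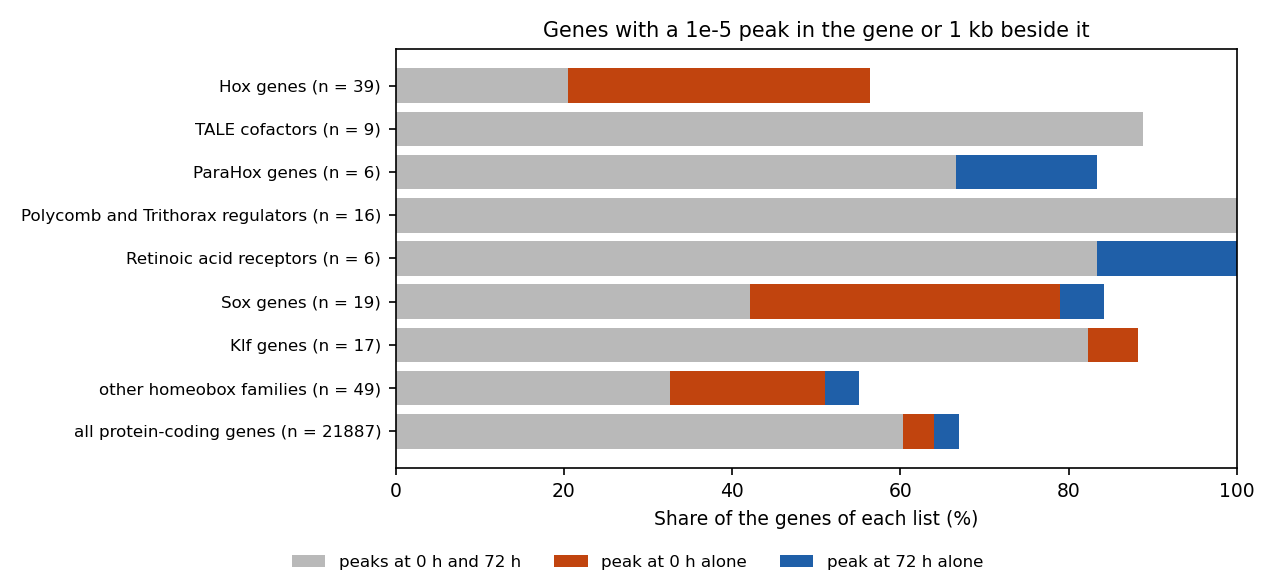
Share of the genes of each list (%) with a 1e-05 peak in the gene or 1 kb beside it, in both libraries (grey), at 0 h alone (orange) or at 72 h alone (blue); the remainder has no peak. The orange part holds 14 of 39 Hox genes, 7 of 19 Sox genes and 9 of 49 genes of the other homeobox families, and 816 of all 21887 genes.

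Markers were checked for the labelled tissue and for other cells in which Hox genes are active. All 10 intestinal epithelium markers, among them Vil1, Epcam and Cdh1, had peaks at both times. Over all genes, 64.1% had a peak at 0 h and 63.3% at 72 h. Of 11 mesenchyme markers, 3 had a peak at 0 h (Pdgfra, Pdgfrb and Col1a1) and 7 at 72 h, and of 5 enteric neuron markers 3 and 3. Immune markers had peaks at 2 of 7 at 0 h and 3 of 7 at 72 h, and endothelial markers at 2 of 5 in each library. Within 50 kb of the endothelial markers lay 6 peaks at 0 h, of which 5 were 0 h-only, and 9 at 72 h, of which 7 were 72 h-only. No peak in either library was found at 4 of the 11 mesenchyme and 4 of the 7 immune markers. The same held for 2 of 5 endothelial and 2 of 5 enteric neuron markers. Acta2, Lum, Ptprc, Cd3e, Cdh5 and Elavl4 are among these. Other markers had strict peaks, among them Col1a1, Spi1, Itgam, Tek and Ret in both libraries. The strict peaks of Tek were at different sites at 0 h and 72 h. Snap25 had a strict peak at 0 h alone, and Dcn, Csf1r, Pecam1 and Tubb3 had one at 72 h alone. By gene the mesenchyme count was higher at 72 h, where the Hox count was lower, but within 50 kb of these markers lay 42 peaks at 0 h and 42 at 72 h. A part of other cells in the Hox result was not tested, and a peak at a marker does not show that the gene is expressed.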

How the data were processed

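Peaks were analysed for 2 of 4 ATAC-seq libraries, 0 h and 72 h, with 1 library each. The submitters' processing notes name the mm10 build and MACS2 2.2.7.1 among the authors' tools, with bedtools 2.26.0, Bowtie2 2.4.1, cutadapt 1.9.1, deepTools 3.5.4, Picard 2.18.27 and SAMtools 1.3.1. Whether reads were shifted for Tn5 or duplicates removed is not given in the sources used here. Their deposited peak lists, called at p-values of 1e-05 and 1e-10, hold coordinates (summits with fixed flanks, nearly all of 1 width) and names, with no height or count, so depth is unknown. Starts were converted to 1-based positions. Genes and promoters came from RefSeq tables of GRCm38.p6, the assembly behind mm10. Peaks were classed by 1 bp of overlap with the 1e-05 list of the other library, and a gene counted as touched within 1 kb. Shares carry exact Clopper-Pearson 95% intervals, and no test between libraries is possible with 1 library each. The overlap code was tested on simulated data. The members and gene lists were chosen with earlier results of these data known. Coordinates were to be given for every Hox gene with a peak in 1 library only (0 h-only or 72 h-only, or 1e-10 in 1 library), and Hox genes without a peak within 1 kb were to be named. The RefSeq table gives gene spans, so no exon or intron was assigned. Some genes and their peaks are included in the counts but are not reported here or drawn. Alternatives were other thresholds, overlaps, windows, gene margins and merged peaks. Intervals used SciPy 1.17.1 and figures matplotlib 3.10.9, under Python 3.11.15 with pandas 2.3.3 and numpy 2.4.6.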

Additional observations from a re-analysis of the deposited data

How the results depend on the processing

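The number of 0 h-only peaks in the Hox windows exceeded that of 72 h-only peaks under all 7 alternatives for overlap, threshold, window and merging, and in each of the 4 clusters under the 5 of them that kept the 1e-05 lists. Changing the overlap rule leaves the totals of 39 peaks at 0 h and 14 at 72 h as they are. With 11 and 10 of these shared, such a change could hardly reverse the direction. Counts fell with the strict lists. With 1e-10 peaks in both libraries there were 8 0 h-only and 3 72 h-only peaks, and the shared shares were 0% at 0 h and 0% at 72 h. The share over all peaks under this rule is not given here. At 0 h and 72 h, 7 and 2 Hox genes had a 1e-10 peak, beside 55.6% and 55.9% of all genes. With 1e-10 peaks judged against the other library's 1e-05 list there were 4 0 h-only and 0 72 h-only peaks, with shared shares of 50% and 100%. Over all peaks, 6.40% of those in the 1e-10 list were 0 h-only by this rule and 18.1% were 72 h-only. The 72 h-only count was 2 in the clusters alone and 8 with flanks of 100 kb, where the 0 h-only counts were 23 and 29. A gene margin of 5 kb gave 13 Hox genes with a peak at 72 h and 29 at 0 h. The shares of all genes with a peak at that margin are not given here, so no departure from a background is read from these counts. Hox genes with a peak at 0 h and none at 72 h numbered 13 with the gene body alone and 16 with 5 kb, beside 14. Over all genes these shares were 3.94% and 3.49%, beside 3.73%. Depth is unknown, so what it limits cannot be stated. No paired analysis was possible because each group has 1 library. Leaving out a replicate was not possible for the same reason.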

Other observations

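The lncRNA genes of the Hox windows overlap the Hox genes in part and are touched by peaks already counted, so their counts are not a separate result. Of 29 lncRNA genes in the windows, 9 were touched by a peak at 0 h and 3 at 72 h, and the 3 were touched at both times. They are Hoxaas3, with 2 peaks at 0 h and 3 at 72 h, and the annotated loci LOC115490409 (7 and 1) and Gm38462 (2 and 1). Those touched at 0 h alone included Haglr beside Hoxd1 and Hoxd3os1 at Hoxd3. Hotair, a lncRNA gene of the Hoxc cluster, had its nearest 0 h peak 18.4 kb away, and Hottip, beyond Hoxa13, was touched by none. None of the 6 miRNA genes of the clusters (Mir10a, Mir10b, Mir196a-1, Mir196a-2, Mir196b and Mir615) was touched by a peak in either library. The nearest was a 0 h peak 0.137 kb from Mir615, inside Hoxc5. Shares over all lncRNA and miRNA genes are not given here, so no departure from a background is read from these counts.

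Farther from the clusters few peaks were called, and no direction is read from them. Over all peaks, 20.7% at 0 h were 0 h-only and 30.6% at 72 h were 72 h-only. Between 50 and 100 kb beyond the outer Hox genes lay 5 peaks at 0 h, of which 1 was 0 h-only, and 9 at 72 h, of which 4 were 72 h-only. Beside Hoxa that stretch held 0 peaks at 0 h and 2 at 72 h, both of them 72 h-only. Beside Hoxd it held 3 peaks at 0 h, all shared, and 5 at 72 h, beside Hoxb 2 in each library, and beside Hoxc none in either. The 2 other protein-coding genes of the windows were Ttll6, a tubulin-modifying enzyme gene outside Hoxb13 with 2 peaks in each library, and Evx2 with 1 at 0 h and 0 at 72 h.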
